A study of Homo sapiens with 80 samples.

Results

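The BCL2 family decides whether a cell permeabilises its mitochondria and dies, and 10 of its genes were followed here through the transcription and RNA of lenalidomide-resistant T-cell lymphoma cells. The genes were taken by name: the pro-survival members BCL2, BCL2L1 and MCL1, the BH3-only members BCL2L11, BMF, BID, BAD and BIK, and the pore-forming effectors BAX and BAK1. All 10 were listed among the 17463 genes of the 3' digital gene expression table and the 58735 genes of each RNA-seq table, and 9 of them, all but BIK, among the 17792 genes of the PRO-seq table. In regrown cells, BCL2L11 and BCL2 were transcribed at 3.08-fold and 2.07-fold the parental level, and BMF was 2.36-fold lower.

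Pro-survival proteins hold the effectors BAX and BAK1 in check. BH3-only proteins, made or activated under stress, bind the pro-survival proteins or the effectors and so release the pores that let cytochrome c out. Lymphoid cells are known to rely on this balance: BCL2 and MCL1 sustain lymphocyte survival, and BIM, the product of BCL2L11, and BMF contribute to the death of lymphocytes deprived of growth signals.

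SU-DHL-1 is a T-cell lymphoma line (ALK-positive anaplastic large cell lymphoma) from lymph node, and KI-JK is a line of the same disease from pleural effusion. Lenalidomide is an immunomodulatory drug that directs the ubiquitin ligase adaptor cereblon to the zinc finger proteins IKZF1 and ZFP91. Regrown SU-DHL-1 cells were 3 independent pools made resistant under rising lenalidomide and then kept off the drug for at least 2 months, and parental cells were their drug-naive source. PRO-seq, which maps engaged RNA polymerase, compared 3 regrown with 3 parental libraries. Digital gene expression, which counts RNA 3' ends, compared 18 h of 2.5 µM lenalidomide with DMSO in regrown and in parental cells. RNA-seq covered regrown and parental cells that all carried Cas9 and an inducible guide vector against ZFP91, with 1 µg/ml doxycycline for 96 h, called knockout here, or without doxycycline. RNA-seq also covered KI-JK cells and parental SU-DHL-1 cells transduced with a vector for CSNK2B, the regulatory subunit of casein kinase 2, or with the empty vector. Each of the 14 groups held 3 libraries, and the sources used here do not say whether the parental or vector libraries came from separate cultures, so p-values measure the spread between these libraries, which may be technical there.

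Library totals were 33467869 to 47199672 counts in PRO-seq, 14444523 to 28927808 in RNA-seq and 41571 to 395827 in digital gene expression, where lenalidomide-treated parental replicate 3 had the lowest total. CPM here are the count of a gene scaled to the library total. Summed lymphoma markers lay at 2566 to 8638 CPM over all groups, from 7 genes in RNA-seq and 5 of them (ALK, TNFRSF8, IL2RA, GZMB and PRF1) in the other assays. Of the T-cell markers, CD2 was at 0 and CD4 at most 0.065 CPM in the RNA-seq libraries with the ZFP91 guide. CSNK2B RNA, at 250, 257 and 247 CPM with the CSNK2B vector and 30.4, 29.2 and 30.2 CPM with the empty vector in SU-DHL-1, matched the vector labels. ZFP91 RNA in the knockout libraries lay at 75.9 to 101 CPM in regrown and 85.8 to 91.7 CPM in parental cells, against 86.5 to 94.3 CPM and 111 to 119 CPM without doxycycline. An edited gene can keep its RNA, so this does not check the loss of the protein. The sum of 5 myeloid markers, nearly all of it CD163 and CSF1R, was 10.2 to 14.7 CPM in regrown and 323 to 337 CPM in parental RNA-seq libraries without doxycycline, and 13.3 to 14.7 CPM in regrown and 393 to 407 CPM in parental libraries with knockout. LYZ and MPO were at 0 in all of these libraries, and the part of this difference in the family genes was not tested. B cell markers summed to at most 0.789 CPM in SU-DHL-1 RNA-seq libraries and to 9.13 to 12.5 CPM in KI-JK.

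The windows just upstream of BCL2L11 and BMF are shown because these genes moved most, in opposite directions. Each window holds the 250 bases before a RefSeq start site (GRCh38.p14), which is also the first base of the interval counted in PRO-seq. Capitals mark 1 motif each, read on both strands: GTAAACA, the core that FOXO factors bind, in BCL2L11, and TGGGAA, the core of the IKZF family, in BMF.
BCL2L11, chr2:111120664-111120913, plus strand: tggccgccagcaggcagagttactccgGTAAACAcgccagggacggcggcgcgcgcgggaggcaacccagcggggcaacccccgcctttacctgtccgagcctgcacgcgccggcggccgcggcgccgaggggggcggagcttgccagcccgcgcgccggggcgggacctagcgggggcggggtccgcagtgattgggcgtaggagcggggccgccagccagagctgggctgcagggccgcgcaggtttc
BMF, chr15:40108880-40109129, minus strand: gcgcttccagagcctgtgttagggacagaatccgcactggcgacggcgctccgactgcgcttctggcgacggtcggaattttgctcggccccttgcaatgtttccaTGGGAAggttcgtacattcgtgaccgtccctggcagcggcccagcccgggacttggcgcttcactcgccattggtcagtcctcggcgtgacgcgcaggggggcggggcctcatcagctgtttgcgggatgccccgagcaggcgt
The FOXO letters began 223 bases before the BCL2L11 start site and were present in 3.42% of the 35116 promoter windows of the same table, which run 250 bases before to 50 after each start. The IKZF letters began 144 bases before the BMF start site and were present in 24.03% of windows. GC content was 76.8% upstream of BCL2L11 and 65.2% upstream of BMF, against a median of 58% over all windows. Of the 10 genes, 8 had a window in the table. Among them the AP-1 letters TGANTCA (7.71% of windows) and the STAT letters TTCNNNGAA (7.66%) occurred in none. The E-box CACGTG (7.26%) occurred 4 times upstream of BAX, and before alternative start sites that lie inside BID. The IKZF letters also occurred upstream of BAK1 and BID. No 2 of these matches overlapped within a window. These matches describe letters and do not show binding.

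The first comparison asked how family genes differ in transcription between lenalidomide-resistant and drug-naive cells. In PRO-seq, 4 of the 9 genes rose in regrown cells and 1 fell, at a Benjamini-Hochberg adjusted p under 0.05 in edgeR's quasi-likelihood test. The background was broad: 30.2% of the 16456 genes tested passed, and the 9 genes had a median log2 fold change of 0.28, against 0.02 over all genes. The genes that rose were BCL2L11, BCL2, BAD and BID, and the gene that fell was BMF. In bulk samples, fewer cells of a type and less RNA per cell cannot be told apart.

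**Figure D1:**
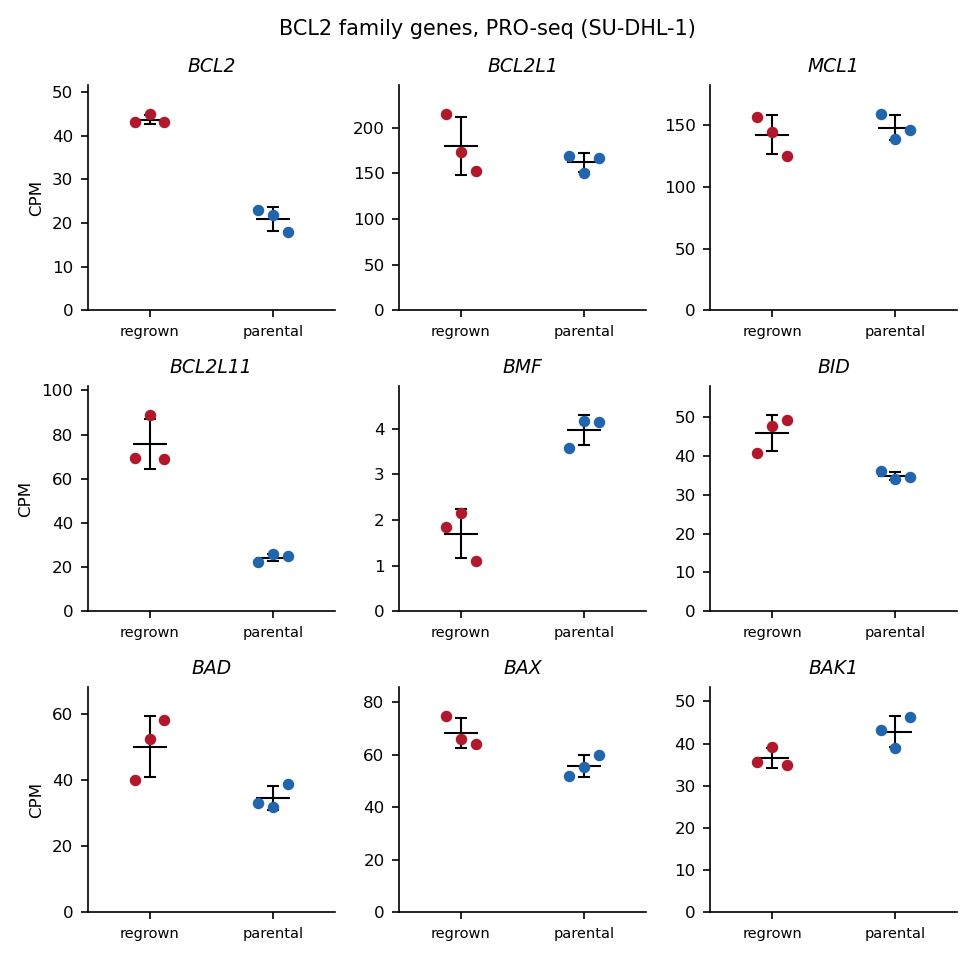
PRO-seq level of each family gene (CPM, linear axes from 0) in 3 regrown and 3 parental SU-DHL-1 libraries. Points are libraries, and lines with whiskers are mean and SD. BCL2L11, BCL2, BID and BAD are higher in every regrown library than in any parental one, and BMF is lower.

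Among the pro-survival genes, BCL2 (chr18:63123346-63320078, minus strand, hg38) had 43.1, 45.0 and 43.1 CPM in regrown cells, against 23.0, 21.8 and 17.9 CPM in parental cells. The groups stood well apart and the regrown pools lay close together. The log2 fold change was 1.05 ± 0.13 (SE, n = 3 each, edgeR adjusted p = 0.000185). BCL2L1, which encodes BCL-xL, had 215, 173 and 153 CPM in regrown and 169, 150 and 167 CPM in parental cells. MCL1, a short-lived survival protein, had 156, 144 and 125 CPM in regrown and 159, 139 and 146 CPM in parental cells. Both pairs of groups overlapped, with log2 fold changes of 0.14 ± 0.13 for BCL2L1 and -0.07 ± 0.11 for MCL1 (edgeR adjusted p = 0.456 and 0.676).

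Among the BH3-only genes, BCL2L11 (chr2:111120914-111168445, plus strand) had 69.3, 88.8 and 69.1 CPM in regrown cells, against 22.4, 25.8 and 24.9 CPM in parental cells. The lowest regrown pool was more than double the highest parental library. Its log2 fold change of 1.62 ± 0.12 was the highest of the 9 (edgeR adjusted p = 1.03e-05). BMF (chr15:40087890-40108879, minus strand), whose protein is held on the cytoskeleton until released, had 1.85, 2.15 and 1.10 CPM in regrown cells and 3.59, 4.17 and 4.16 CPM in parental cells. The groups did not overlap, and the log2 fold change was -1.24 ± 0.28 (edgeR adjusted p = 0.00692). BMF rested on far fewer counts than BCL2L11, 199 over the regrown and 437 over the parental libraries, against 9091 and 2682 for BCL2L11.

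BID links death receptors to mitochondria once caspase 8 has cut it. It had 40.6, 47.6 and 49.3 CPM in regrown and 36.1, 33.9 and 34.4 CPM in parental cells, with a log2 fold change of 0.39 ± 0.11 (edgeR adjusted p = 0.0192). BAD, a sensor of survival kinases, had 40.0, 52.4 and 58.2 CPM in regrown and 33.2, 31.8 and 38.8 CPM in parental cells, with a log2 fold change of 0.53 ± 0.14 (edgeR adjusted p = 0.0151). Neither pair of groups overlapped, but regrown replicate 1 came close to the parental range for both genes. Both calls rested on single libraries. The BID adjusted p was 0.0748 without parental replicate 2, 0.0650 without regrown replicate 2 and 0.0654 without regrown replicate 3. The BAD adjusted p was 0.0552 without parental replicate 1 and 0.0713 without parental replicate 2. BAD also overlaps the protein-coding gene GPR137 in RefSeq, and how overlapping reads were counted is not given in the sources used here.

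The effectors passed no test in PRO-seq. BAX had 74.7, 65.8 and 63.9 CPM in regrown and 51.9, 55.2 and 60.0 CPM in parental cells, groups that did not overlap, with a log2 fold change of 0.28 ± 0.10 (edgeR adjusted p = 0.0587). BAK1 had 35.7, 39.3 and 34.9 CPM in regrown and 43.3, 39.0 and 46.3 CPM in parental cells, overlapping groups with a log2 fold change of -0.24 ± 0.10 (edgeR adjusted p = 0.114).

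PRO-seq levels were also divided by the length of each counted interval and set side by side. Signal near the start site was not separated from the rest of the interval. MCL1, BAX, BAK1 and BAD had the shortest intervals, at 5053, 6924, 7663 and 14821 bases, and BCL2 the longest, at 196733. The part of interval length in the order of genes was not tested. MCL1 had the highest density in both kinds of cells, at 28.1 ± 3.16 CPM per kb in regrown and 29.2 ± 2.01 CPM per kb in parental cells (SD, n = 3 each). BAX followed at 9.84 ± 0.83 CPM per kb in regrown and 8.04 ± 0.59 CPM per kb in parental cells, and BAK1 at 4.78 ± 0.30 CPM per kb in regrown and 5.59 ± 0.48 CPM per kb in parental cells. BAD and BCL2L1 came next, at 3.39 ± 0.63 and 3.05 ± 0.54 CPM per kb in regrown cells and 2.33 ± 0.25 and 2.75 ± 0.18 CPM per kb in parental cells. The ranges of BAD and BCL2L1 overlapped in both kinds of cells, so their order is not resolved.

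At the lower end of these length-scaled levels the order differed between the cells. BCL2L11, at 1.59 ± 0.24 CPM per kb, stood above BID, at 1.18 ± 0.12 CPM per kb, in regrown cells, and below it in parental cells, at 0.513 ± 0.037 and 0.894 ± 0.029 CPM per kb. BCL2, at 0.222 ± 0.006 CPM per kb, stood above BMF, at 0.0811 ± 0.0258 CPM per kb, in regrown cells, and below it in parental cells, at 0.106 ± 0.014 and 0.189 ± 0.016 CPM per kb. In none of these 4 pairs did the ranges overlap.

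A change can belong to a stretch of chromosome as well as to a gene, so each gene was set beside its 24 nearest tested genes by RefSeq position. Of the 16431 tested PRO-seq genes with a symbol, 13894 had a position. The 24 neighbours of BCL2L11 lay within 1.53 Mb and had a median log2 fold change of -0.33: 13 fell, 0 rose, and none reached the value of BCL2L11. The 24 neighbours of BCL2, within 5.49 Mb, had a median of 0.10, and 1 of them exceeded BCL2. The 24 neighbours of BMF, within 0.784 Mb, had a median of 0.15, and every one lay above BMF. Neighbour medians were 0.07 for BID and 0.24 for BAD, and 4 and 3 of the 24 neighbours exceeded these genes.

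**Figure D2:**
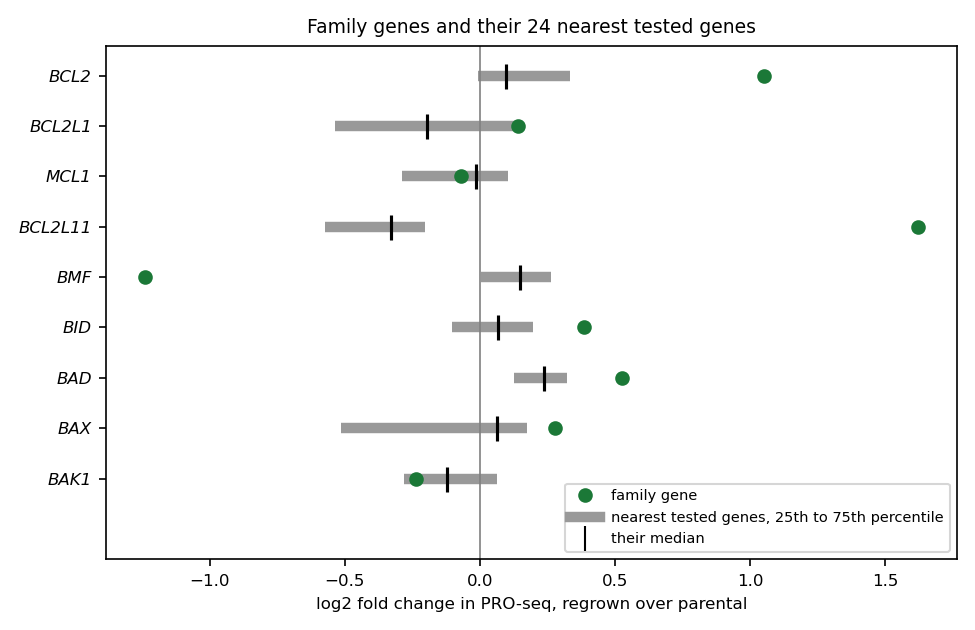
PRO-seq log2 fold change (regrown over parental) of each family gene (point) beside the 25th to 75th percentile (bar) and median (tick) of its 24 nearest tested genes. BCL2L11 at 1.62 and BMF at -1.24 lie outside the bars on opposite sides, and the bar of BCL2L11 lies below 0.

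The second set of libraries asked whether steady RNA differed in the same way, in cells with the guide vector and no doxycycline. In these regrown cells 4 of 9 tested genes rose and 3 fell, where 43.7% of 13379 genes passed, with a member median of 0.25 against -0.003 over all genes (log2). BCL2L11, BCL2, MCL1 and BCL2L1 rose, and BAX, BAK1 and BMF fell. The regrown libraries here stood apart on the level of short minus long genes, computed from the same counts. The level is in log2, relative to the mean of all ZFP91-experiment libraries. It was -0.29, -0.14 and -0.45 in regrown and -0.02, 0.02 and 0.23 in parental libraries, without overlap. Whether it comes from library quality or from the cells was not tested. The family genes of this comparison are therefore also given with this score as a covariate, an alternative chosen after seeing the data, as are other results of the ZFP91 experiment where it changed a call. Since the groups did not overlap on the score, such a fit cannot fully separate the score from the kind of cell in this comparison.

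BCL2 RNA was 15.6, 16.3 and 13.8 CPM in regrown cells, against 6.33, 5.82 and 5.59 CPM in parental cells. BCL2L11 RNA was 25.7, 26.0 and 27.6 CPM in regrown cells, against 6.39, 7.58 and 8.18 CPM in parental cells. All regrown libraries lay at more than double any parental one for both genes. The log2 fold changes were 1.46 ± 0.17 for BCL2 and 1.93 ± 0.15 for BCL2L11 (edgeR adjusted p = 1.06e-05 and 1.9e-07), and with the score 1.57 and 2.02 (edgeR adjusted p = 0.00139 and 2.2e-05). MCL1 RNA was 486, 489 and 478 CPM in regrown cells and 404, 383 and 385 CPM in parental cells, a log2 fold change of 0.41 ± 0.08 (edgeR adjusted p = 0.000955, and 0.0234 with the score). BCL2L1 RNA was 63.4, 54.7 and 59.8 CPM in regrown and 51.0, 51.4 and 48.5 CPM in parental cells, a log2 fold change of 0.34 ± 0.10 (edgeR adjusted p = 0.0113). The BCL2L1 call was lost with the score (adjusted p = 0.463), with scaling by library size alone (0.0611) and without parental replicate 3 (0.0526). BCL2L1 also overlaps the antisense gene BCL2L1-AS1, and whether counting used the strand is not given in the sources used here.

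BAX RNA was 79.1, 76.5 and 61.4 CPM in regrown cells and 91.9, 112 and 121 CPM in parental cells. BAK1 RNA was 53.4, 51.2 and 43.0 CPM in regrown cells and 76.3, 74.2 and 76.0 CPM in parental cells. Neither pair of groups overlapped. The log2 fold changes were -0.48 ± 0.12 for BAX and -0.52 ± 0.10 for BAK1 (edgeR adjusted p = 0.00436 and 0.000875). With the score they were -0.06 and -0.34 (edgeR adjusted p = 0.841 and 0.168), and the part of library composition in these differences was not tested beyond that.

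BMF RNA was near the limit of detection, with 8, 8 and 1 counts in regrown and 19, 14 and 30 counts in parental libraries. The groups did not overlap, and the summed rate ratio was 0.263 (95% counting interval 0.144 to 0.455). The log2 fold change was -1.81 ± 0.66 (edgeR adjusted p = 0.0380), but only 4 of 13 alternatives kept the call. It was lost with the replicate block that pairs libraries by number (adjusted p = 0.0765), with the score (0.879), without parental replicate 1, 2 or 3 (0.104, 0.0756 and 0.186) and without regrown replicate 1 or 3 (0.0584 and 0.113). BID RNA was 41.9, 48.5 and 39.0 CPM in regrown and 37.9, 36.4 and 42.1 CPM in parental cells, and BAD RNA 17.7, 18.1 and 11 CPM in regrown and 12.6, 15.3 and 19.1 CPM in parental cells. Both overlapped, with log2 fold changes of 0.25 ± 0.11 for BID and 0.09 ± 0.20 for BAD (edgeR adjusted p = 0.0909 and 0.742). With the score both passed the test, at 0.59 for BID and 0.91 for BAD (edgeR adjusted p = 0.0218 and 0.0255). Score and kind of cell cannot be fully separated here, so neither value is read as a rise. BIK had 3, 3 and 9 counts in regrown and 1, 4 and 3 counts in parental libraries, too few to test.

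**Figure D3:**
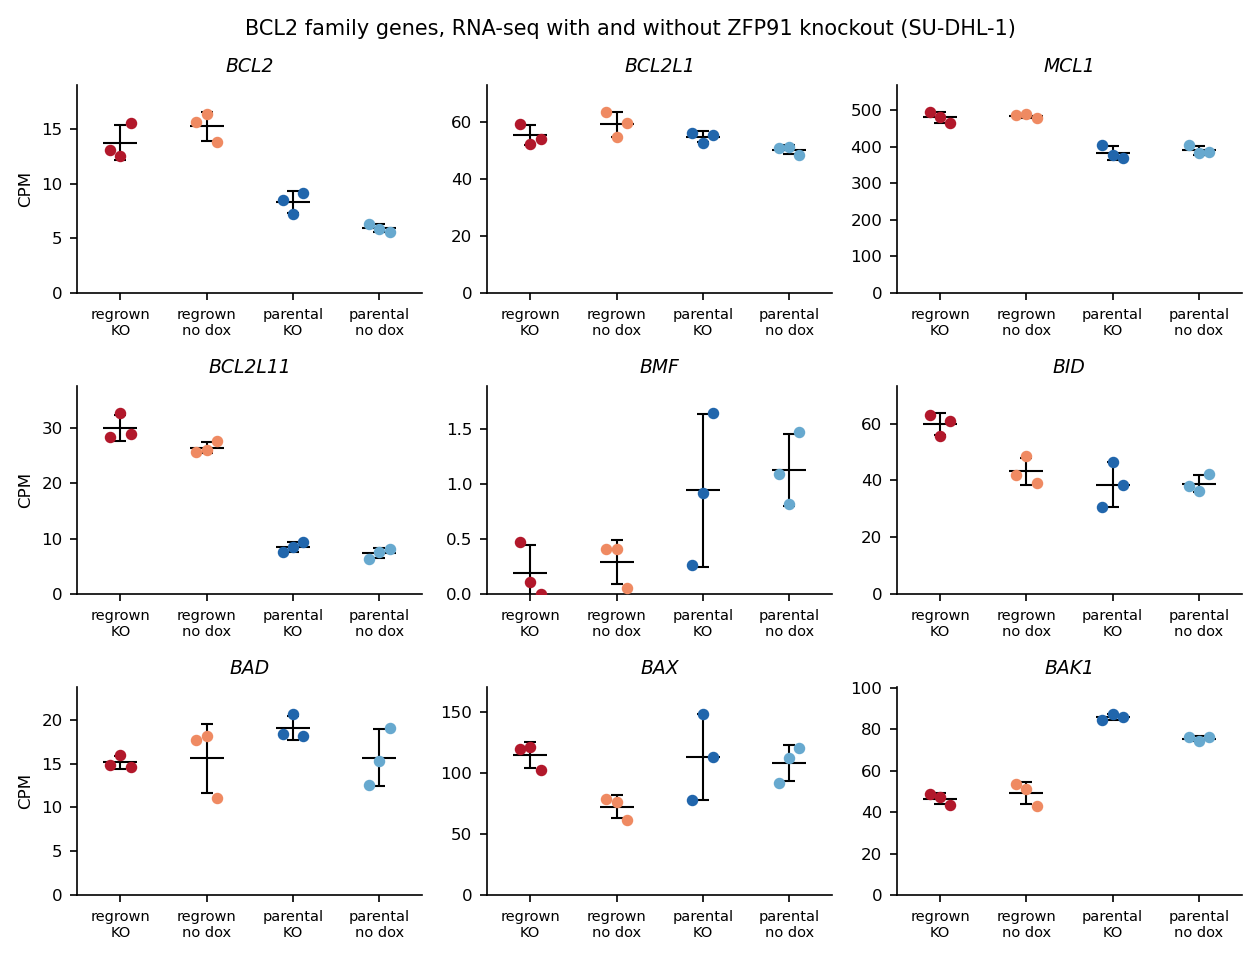
RNA-seq level of each family gene (CPM, linear axes from 0) in SU-DHL-1 cells with the ZFP91 guide vector, with doxycycline (KO) or without (no dox), 3 libraries per group. Points are libraries, and lines with whiskers are mean and SD. BCL2L11 and BCL2 separate regrown from parental cells with and without knockout, as does BAK1 in the other direction.

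The same contrast between cells was available under ZFP91 knockout, where the scores of short against long genes overlapped (0.17, 0.16 and 0.08 in regrown and -0.20, 0.36 and 0.09 in parental libraries). Here 4 of 8 tested genes rose and 2 fell, where 38.4% of 13444 genes passed, with a member median of 0.16 against 0.00 over all genes (log2). BCL2L11, BCL2, BID and MCL1 rose, and BAK1 and BAD fell, and each of these 6 calls held with the score. These libraries differ from those without doxycycline, so the genes called in both sets were measured in separate libraries of the same cells.

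BCL2L11 RNA was 28.4, 32.7 and 28.9 CPM in regrown knockout cells, against 7.60, 8.54 and 9.40 CPM in parental knockout cells. The lowest regrown library was 3 times the highest parental one, and the log2 fold change was 1.80 ± 0.12 (edgeR adjusted p = 8.4e-06). BCL2 RNA was 13.1, 12.5 and 15.5 CPM in regrown knockout cells and 8.51, 7.21 and 9.17 CPM in parental knockout cells, without overlap, with a log2 fold change of 0.72 ± 0.15 (edgeR adjusted p = 0.00448). BAK1 RNA was 48.7, 47.1 and 43.6 CPM in regrown knockout cells and 84.4, 87.5 and 86.0 CPM in parental knockout cells. It was the effector whose RNA was lower in regrown cells under both conditions, here by 1.86-fold (log2 fold change -0.89 ± 0.08, edgeR adjusted p = 2.75e-05). Without doxycycline, the BAK1 call was lost with the score (edgeR adjusted p = 0.168). In RNA, genes around BAK1 were lower too. Its 24 nearest tested genes had a median log2 fold change of -0.30 with knockout (0 rose and 10 fell). Without doxycycline their median was -0.43 (0 rose and 13 fell), where BAK1 itself was at -0.52. In PRO-seq the median of its 24 nearest tested genes was -0.12 (0 rose and 2 fell), where BAK1 was at -0.24.

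MCL1 RNA was 496, 480 and 465 CPM in regrown knockout cells and 404, 377 and 368 CPM in parental knockout cells, with a log2 fold change of 0.32 ± 0.08 (edgeR adjusted p = 0.0112). The MCL1 call was lost without parental knockout replicate 3 (adjusted p = 0.0697) or regrown knockout replicate 1 (0.0519). BID RNA was 63.1, 55.5 and 61.1 CPM in regrown knockout cells and 30.5, 46.4 and 38.5 CPM in parental knockout cells, without overlap, with a log2 fold change of 0.63 ± 0.14 (edgeR adjusted p = 0.00647). BAD RNA was 14.8, 15.9 and 14.6 CPM in regrown knockout cells and 18.4, 20.7 and 18.1 CPM in parental knockout cells. This fall, a log2 fold change of -0.34 ± 0.11 (edgeR adjusted p = 0.0345), was kept in 6 of 14 alternatives and had an adjusted p of 0.0605 with the replicate block. It was lost without parental knockout replicate 2 or 3 (0.0873 and 0.0638) and without regrown knockout replicate 1, 2 or 3 (0.114, 0.0769 and 0.105). Its direction was opposite to that of BAD in PRO-seq. The short minus long score of PRO-seq libraries was -0.01, 0.18 and 0.12 in regrown and -0.19, -0.21 and 0.13 in parental cells. The part of this score in the PRO-seq values was not tested.

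BAX RNA was 120, 122 and 102 CPM in regrown knockout cells and 78.2, 149 and 114 CPM in parental knockout cells, and BCL2L1 RNA 59.3, 52.5 and 54.2 CPM in regrown and 56.3, 52.7 and 55.5 CPM in parental knockout cells. Both overlapped, with log2 fold changes of 0.01 ± 0.19 for BAX and 0.01 ± 0.08 for BCL2L1 (edgeR adjusted p = 0.985 and 0.952). BMF was too low to test, at 11, 2 and 0 counts in regrown and 4, 18 and 36 counts in parental knockout libraries, a summed rate ratio of 0.199 (95% counting interval 0.100 to 0.367). Counting intervals cover counting error only. BIK had 3 counts in each regrown and 3, 5 and 5 counts in the parental knockout libraries.

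**Figure D4:**
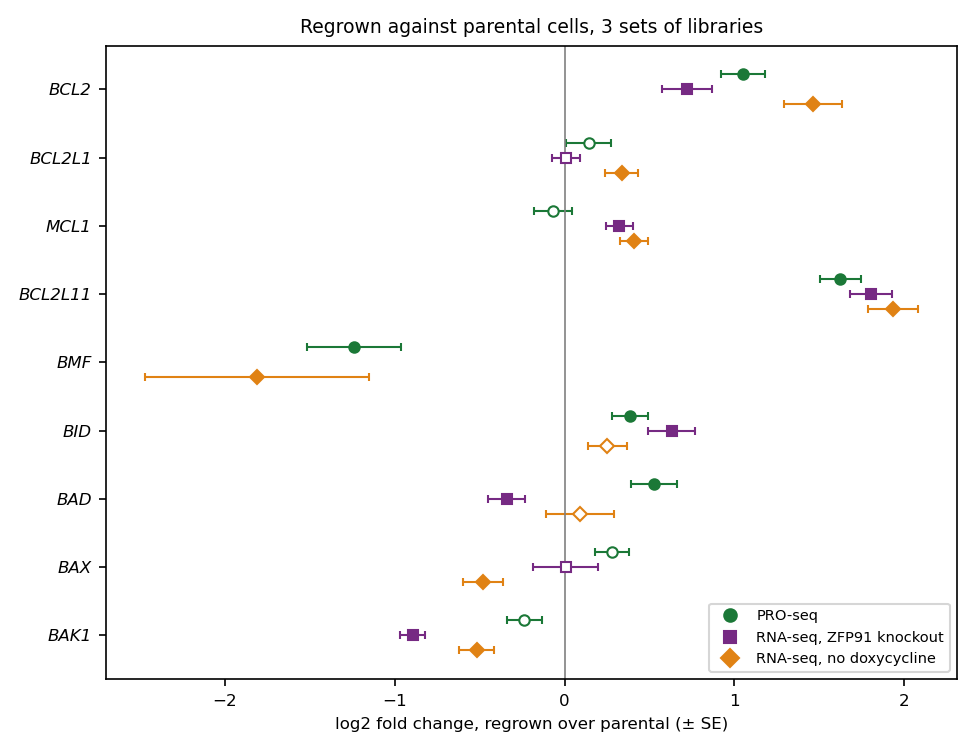
log2 fold change (regrown over parental) of 9 family genes with its SE in PRO-seq (circles), RNA-seq with ZFP91 knockout (squares) and RNA-seq without doxycycline (diamonds). Filled symbols passed an edgeR adjusted p of 0.05. BCL2 and BCL2L11 lie right of 0 in all 3 sets of libraries, BAK1 lies left of 0 and is filled in both RNA-seq sets, and BAD is filled on opposite sides in PRO-seq and in RNA-seq with knockout.

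Digital gene expression was too shallow for most of the family. In DMSO, 3 of the 10 genes had enough counts to be tested between regrown and parental cells, and none passed, where 6.21% of 5941 genes did. MCL1 had 53, 64 and 34 counts in regrown and 56, 65 and 62 counts in parental libraries, BID 43, 51 and 38 in regrown and 40, 33 and 43 in parental libraries, and BAX 17, 14 and 14 in regrown and 11, 14 and 16 in parental libraries. All 3 pairs overlapped. The log2 fold changes were -0.27 for MCL1, 0.20 for BID and 0.16 for BAX (edgeR adjusted p = 0.571, 0.728 and 0.879).

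Of the genes that differed in PRO-seq, BCL2L11, BCL2 and BMF were at the edge of this assay. BCL2L11 had 15 counts summed over regrown and 7 over parental DMSO libraries, a rate ratio of 2.19 (95% counting interval 0.840 to 6.35), and BCL2 had 3 over each. BAK1, which did not pass in PRO-seq, had 17 counts over regrown and 41 over parental DMSO libraries. Its rate ratio was 0.423 (95% counting interval 0.226 to 0.762). In lenalidomide the BAK1 rates were not separated. BAK1 had 18 counts over regrown and 20 over parental libraries there (95% counting interval of the rate ratio 0.574 to 2.29). BCL2L11 had 7 and 8 counts in lenalidomide (95% counting interval 0.346 to 3.53), also not separated. BMF was at 0 in 11 of the 12 libraries. A count of 0 over a group allows up to 2.91 to 4.97 CPM, so the difference of BMF was not detectable at this depth. The BCL2 rate ratio in DMSO had a 95% counting interval of 0.137 to 7.6, too wide to resolve its difference. In lenalidomide, the same 3 genes could be tested between regrown and parental cells and none passed, where 2.78% of 4648 genes did (log2 fold changes of 0.22 for BID, 0.07 for BAX and -0.05 for MCL1).

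Lenalidomide itself was set against DMSO in both kinds of cells. In regrown cells none of 4 tested family genes passed, where 0.23% of 5661 genes did: the log2 fold changes were 0.46 for BAD, 0.42 for MCL1, 0.28 for BAX and -0.02 for BID (edgeR adjusted p = 0.997 for each). In parental cells none of 4 passed, where 0.845% of 5796 genes did: the log2 fold changes were -0.57 for BAK1, 0.34 for BAX, 0.19 for MCL1 and 0.01 for BID (edgeR adjusted p = 0.842 to 0.996). The difference between the responses of regrown and parental cells, the interaction term, passed for none of 6 tested family genes and 0% of 6838 genes in edgeR, with 285 at an unadjusted p under 0.05. DESeq2 also called 0 genes in that term, with 160 at an unadjusted p under 0.05. At these low counts per gene, these values do not show that the family was unaffected by the drug.

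ZFP91 knockout was set against no doxycycline within each kind of cell. Every knockout library had doxycycline and no comparator did, so doxycycline itself and knockout cannot be told apart. In regrown knockout cells BAX and BID rose, 2 of 8 tested genes, where 31.9% of 13107 genes passed. BAX RNA was 120, 122 and 102 CPM with knockout and 79.1, 76.5 and 61.4 CPM without doxycycline, and BID RNA 63.1, 55.5 and 61.1 CPM with knockout and 41.9, 48.5 and 39.0 CPM without. No knockout library overlapped the others. The log2 fold changes were 0.62 ± 0.10 for BAX and 0.43 ± 0.10 for BID (edgeR adjusted p = 0.00102 and 0.0066). The short against long gene scores of the same groups did not overlap either, at 0.17, 0.16 and 0.08 with knockout and -0.29, -0.14 and -0.45 without. With the score as covariate BAX had a log2 fold change of 0.13 and BID of 0.08 (edgeR adjusted p = 0.899 and 0.955), and 0 of all genes were called, so knockout and score cannot be told apart in regrown cells.

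The other 6 family genes tested in regrown cells had log2 fold changes of -0.19 for BCL2, -0.14 for BCL2L1, 0.14 for BCL2L11, -0.13 for BAK1, -0.09 for BAD and -0.05 for MCL1 (edgeR adjusted p = 0.255 to 0.725). In parental knockout cells none of 9 family genes passed, where 0.427% of 13354 genes did. BCL2 RNA was 8.51, 7.21 and 9.17 CPM with knockout and 6.33, 5.82 and 5.59 CPM without doxycycline, groups that did not overlap, with a log2 fold change of 0.52 ± 0.16 (edgeR adjusted p = 0.344, and 0.0459 with the score). BAK1 RNA was 84.4, 87.5 and 86.0 CPM with knockout and 76.3, 74.2 and 76.0 CPM without, also without overlap, with a log2 fold change of 0.22 ± 0.08 (edgeR adjusted p = 0.428, and 0.0152 with the score). The other 7 ranged from -0.19 for BMF to 0.31 for BAD.

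The interaction term of the ZFP91 experiment, the knockout response in regrown minus that in parental cells, passed for 1 of 9 family genes and 9.81% of 14267 genes. The gene was BCL2, at -0.72 ± 0.21 on the log2 scale (edgeR adjusted p = 0.0449), the difference between -0.19 in regrown and 0.52 in parental cells. This call held in 5 of 19 alternatives. Of the 12 libraries, it held when parental knockout replicate 2 was left out, and without any other the adjusted p was 0.0514 to 0.126. It was lost with the score (adjusted p = 0.293) and with library size alone (0.0596). BAX had an interaction of 0.51 ± 0.24 (edgeR adjusted p = 0.172), which passed with the replicate block (0.0280) and without parental knockout replicate 2 (0.0116), and was -0.07 with the score (0.871). BID, at 0.40 ± 0.18 (edgeR adjusted p = 0.158), also passed without that library (0.0221), and was 0.02 with the score (0.971).

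The last comparison asked what CSNK2B overexpression did in drug-naive cells. CSNK2B was itself more transcribed in regrown cells, at 34.1, 31.0 and 31.9 CPM in PRO-seq against 8.26, 6.63 and 8.32 CPM in parental cells. The tested family genes moved little with the vector. BCL2 passed in neither line. BCL2L11 did not pass in SU-DHL-1, and BCL2L11 and BMF were too low to test in KI-JK. In SU-DHL-1, MCL1 fell with CSNK2B, 1 of 9 tested genes, where 6.74% of 13727 genes passed. MCL1 RNA was 390, 389 and 379 CPM with CSNK2B and 426, 427 and 427 CPM with the empty vector, without overlap. The log2 fold change was -0.15 ± 0.03 (edgeR adjusted p = 0.00603), a 1.11-fold lower level that held in 12 of 12 alternatives.

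BCL2L11 RNA in SU-DHL-1 was 5.82, 6.86 and 4.82 CPM with CSNK2B and 4.64, 4.78 and 4.07 CPM with the empty vector, with a log2 fold change of 0.37 ± 0.15 (edgeR adjusted p = 0.173). BCL2 RNA was 5.72, 6.86 and 5.76 CPM with CSNK2B and 6.39, 6.58 and 7.54 CPM with the empty vector, with a log2 fold change of -0.16 ± 0.13 (edgeR adjusted p = 0.568). The BCL2L11 groups were separated by a narrow gap and the BCL2 groups overlapped. BMF, at 1.35, 1.23 and 1.83 CPM with CSNK2B and 1.70, 1.25 and 1.2 CPM with the empty vector, overlapped too. The other 5 tested genes had log2 fold changes between -0.02 for BID and 0.10 for BAX.

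In KI-JK, BAK1 and BCL2L1 rose with CSNK2B, 2 of 7 tested genes, where 35.7% of 14104 genes passed. BAK1 RNA was 41.8, 40.6 and 38.1 CPM with CSNK2B and 32.9, 36.2 and 32.1 CPM with the empty vector, without overlap, with a log2 fold change of 0.27 ± 0.06 (edgeR adjusted p = 0.00178). BCL2L1 RNA was 33.0, 32.7 and 34.5 CPM with CSNK2B and 31.3, 30.3 and 28.5 CPM with the empty vector, with a log2 fold change of 0.18 ± 0.06 (edgeR adjusted p = 0.0304). The BCL2L1 call held in 6 of 12 alternatives, and DESeq2 gave an adjusted p of 0.0560. It was lost without empty vector replicate 2 or 3 (0.0594 and 0.130) and without CSNK2B replicate 1 or 3 (0.0528 and 0.106). MCL1 RNA was 682, 694 and 684 CPM with CSNK2B and 719, 728 and 742 CPM with the empty vector, groups that did not overlap but missed the threshold, with a log2 fold change of -0.07 ± 0.03 (edgeR adjusted p = 0.107). Log2 fold changes were 0.18 ± 0.08 for BCL2, 0.22 ± 0.09 for BAD and -0.25 ± 0.25 for BID (edgeR adjusted p = 0.0966, 0.0602 and 0.471).

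Levels in KI-JK are set beside those in SU-DHL-1 as a description, since line and table cannot be told apart. BCL2L11 was nearly absent from KI-JK, at 0.303, 0.543 and 0.346 CPM with CSNK2B and 0.635, 0.275 and 0.205 CPM with the empty vector, far below every SU-DHL-1 library. BID was also low there, at 2.04, 2.09 and 1.56 CPM with CSNK2B and 2.08, 2.00 and 2.74 CPM with the empty vector, where no SU-DHL-1 vector library was below 41.9 CPM. BCL2 went the other way, at 17.4, 18.6 and 17.2 CPM with CSNK2B and 15.1, 15.8 and 16.8 CPM with the empty vector, above the 5.72 to 7.54 CPM of the SU-DHL-1 vector libraries. BIK had 0, 1 and 0 counts with CSNK2B and 0 with the empty vector in KI-JK, and 6, 2 and 3 counts with CSNK2B and 2, 0 and 1 with the empty vector in SU-DHL-1. BMF in KI-JK had 7, 3 and 6 counts with CSNK2B and 10, 19 and 7 counts with the empty vector.

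**Figure D5:**
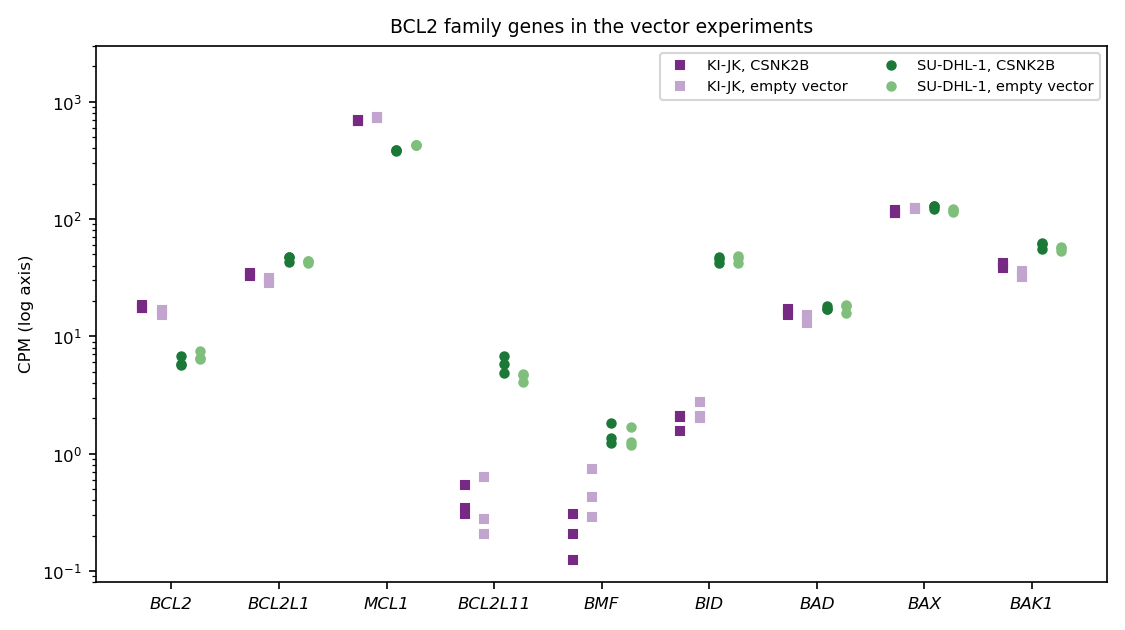
RNA-seq level of 9 family genes (CPM, log axis) in KI-JK and SU-DHL-1 cells with the CSNK2B vector or the empty vector, 3 libraries per group, each point a library. BCL2L11 and BID are lower in KI-JK than in SU-DHL-1, BCL2 and MCL1 are higher, and the 2 vectors lie close together for most genes in each line.

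The difference between the responses of the lines to CSNK2B passed for 1 of 9 family genes and 19.2% of 15564 genes. BAX had an interaction of -0.17 ± 0.06 on the log2 scale (edgeR adjusted p = 0.0404), the difference between -0.09 ± 0.04 in KI-JK and 0.10 ± 0.04 in SU-DHL-1, neither of which passed alone. BAX RNA was 119, 113 and 112 CPM with CSNK2B and 124, 124 and 122 CPM with the empty vector in KI-JK. In SU-DHL-1 it was 129, 122 and 130 CPM with CSNK2B and 114, 122 and 119 CPM with the empty vector. The KI-JK groups did not overlap and the SU-DHL-1 groups met at 122 CPM. The call held in 11 of 18 alternatives, and 6 of the others each left out 1 library: KI-JK CSNK2B replicate 2 or 3 (adjusted p = 0.0682 and 0.0528), SU-DHL-1 empty vector replicate 1 or 3 (0.126 and 0.0530) or SU-DHL-1 CSNK2B replicate 1 or 3 (0.126 and 0.0570).

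Genes around the family were read from 3 lists, whose counts stand against 30.2% of all genes called in PRO-seq, 43.7% in RNA without doxycycline and 38.4% in RNA with knockout. Among 12 transcription factors known to act on family genes, 11 were tested between regrown and parental cells in PRO-seq: 4 rose and 3 fell, with a median log2 fold change of 0.14. TP73, a p53 relative, had 34.8, 36.7 and 37.9 CPM in regrown and 2.2, 1.77 and 1.73 CPM in parental cells, a log2 fold change of 4.25 ± 0.16 (edgeR adjusted p = 1.56e-07). TP73 RNA without doxycycline was 529, 310 and 424 counts in regrown and 0, 2 and 0 counts in parental libraries, a rate ratio of 615 (95% counting interval 170 to 5083, and 409.9 against a floor of 3 parental counts). With knockout it was 315, 318 and 286 counts in regrown and 0 in each parental library. The rate ratio was 272 against the same floor, and its lower 95% counting limit was 221.

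FOXO1, a forkhead factor, had 59.2, 70.9 and 50.8 CPM in regrown and 25.7, 31.7 and 29.8 CPM in parental PRO-seq libraries, a log2 fold change of 1.04 ± 0.14. FOXO3, its relative with overlapping targets, had 9.59, 9.52 and 9.20 CPM in regrown and 16, 17.4 and 13.2 CPM in parental libraries, a log2 fold change of -0.73 ± 0.16. The 2 forkhead genes thus stood on opposite sides, and neither pair of groups overlapped. In RNA without doxycycline 5 of 11 factors rose and 2 fell, with FOXO1 at 1.67 ± 0.13, FOXO3 at -1.63 ± 0.40 and JUN at -1.20 ± 0.16 (log2 fold change). With the score 4 of these 7 calls held, with FOXO1 at 1.65, FOXO3 at -2.84 and JUN at -0.63. With knockout 4 of 11 rose and 2 fell, with FOXO1 at 1.11 ± 0.13 and FOXO3 at -3.07 ± 0.35. Whether any factor acts on the family genes here was not tested.

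Among 11 other BCL2 family genes, 5 were tested in PRO-seq and 1 rose: BCL2A1, a survival gene, had 295, 296 and 263 CPM in regrown and 242, 209 and 184 CPM in parental cells (log2 fold change 0.41 ± 0.13). In RNA without doxycycline 0 of 6 rose and 2 fell, BCL2L12 by 0.89 and BCL2L2 by 0.76 on the log2 scale, and 1 of these 2 calls, BCL2L12, held with the score. With knockout 3 of 6 rose and 0 fell: BCL2A1 at 0.87, PMAIP1, which encodes the BH3-only protein NOXA, at 0.51 and BBC3, which encodes PUMA, at 0.47.

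Among 17 genes of the mitochondrial and caspase machinery, 3 rose and 1 fell in PRO-seq, with a median log2 fold change of 0.02. CASP6, an executioner caspase, had 15.8, 13.3 and 13.2 CPM in regrown and 21.7, 25 and 28 CPM in parental cells (log2 fold change -0.83 ± 0.15). CYCS, cytochrome c, FADD and CASP8 rose, by log2 fold changes of 0.46, 0.39 and 0.30. In RNA with knockout 3 of 17 rose and 1 fell. Without doxycycline 3 of 17 rose and 6 fell, and with the score 2 of these 9 calls held, those of CFLAR and VDAC2. CFLAR, which blocks caspase 8 at death receptors, rose in both, at 0.71 ± 0.10 with knockout and 0.81 ± 0.12 without doxycycline (0.57 with the score). In PRO-seq CFLAR had 125, 111 and 160 CPM in regrown and 129, 131 and 127 CPM in parental cells, which overlapped.

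Between knockout and no doxycycline in regrown cells, where 31.9% of all genes were called, 4 of 6 other family genes rose and 0 fell, 5 of 17 machinery genes rose and 3 fell, and 2 of 11 factors rose and 3 fell. None of these calls held with the score. In parental cells, where 0.427% of all genes were called, 0 of 33 listed genes were. The interaction term, where 9.81% of all genes were called, passed for 3 of 17 machinery genes, 2 of 6 other family genes and 0 of 12 factors. None of these 5 calls held with the score either. CSNK2B overexpression changed machinery genes in both lines. BIRC3, an inhibitor of apoptosis, had 52.0, 58.7 and 55.3 CPM with CSNK2B and 74.2, 80.0 and 78.7 CPM with the empty vector in KI-JK, and 29.4, 33.7 and 27.9 CPM with CSNK2B and 51.1, 50.5 and 55.5 CPM with the empty vector in SU-DHL-1. It fell in both, by 0.47 and 0.79 on the log2 scale, without overlap. CYCS rose in both, by log2 fold changes of 0.21 in KI-JK and 0.28 in SU-DHL-1. In all, 4 of 17 machinery genes rose and 5 fell in KI-JK, where 35.7% of all genes were called, and 2 rose and 1 fell in SU-DHL-1, where 6.74% were.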

How the data were processed

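The 5 deposited tables used hold raw read counts per gene for 42 libraries in 14 groups of 3; 38 ChIP-seq samples were not analysed here. Per the submitters' processing notes, the authors used Bowtie 1.2.2 and featureCounts 1.6.2 (hg38) for PRO-seq, Bowtie2 2.2.3 (hg19) for digital gene expression and STAR 2.6.1d (hg38) for RNA-seq. The strand setting and the treatment of overlapping genes are not given in the sources used here, which can affect BAD, BCL2L1, BCL2 and BID, since RefSeq places other genes on them. CPM were computed as counts over the library total.

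Each comparison was fitted on all genes with edgeR 4.0.16 in R 4.3.3: filterByExpr, TMM scaling and the quasi-likelihood test of the 2 groups, with p-values adjusted (Benjamini-Hochberg) over every tested gene and a threshold of 0.05; interactions used all 4 groups. The SE is the log2 fold change over the square root of F. There were 11 pairs and 3 interactions. Genes named were all 10 members, CSNK2B, ZFP91, and for each pathway list the called genes of smallest p. The members and lists were chosen with earlier results of these data known. CFLAR in PRO-seq was named after its values were seen.

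Alternatives were DESeq2 1.42.0, its size factors in edgeR, library size alone, a 1 CPM filter, no filter, all groups in 1 fit, the replicate block and each library left out. Added after seeing the data was a covariate for short minus long genes, the difference between the medians of genes at or below the lower and at or above the upper quartile of gene length. Replicate numbers name the same regrown pool in regrown lenalidomide and DMSO libraries and in regrown knockout and no doxycycline libraries, per the labels, and so pair them; elsewhere they share only a number. No 2 libraries of a group differed by less than sampling noise (smallest chi-square per degree of freedom 1.34). Intervals are exact at 95% and cover counting error only.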

Additional observations from a re-analysis of the deposited data

Results flagged for a closer look

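The response of BCL2 RNA to ZFP91 knockout differed between regrown and parental SU-DHL-1 cells by -0.72 on the log2 scale, by the interaction term (edgeR adjusted p = 0.0449). The groups were 13.1, 12.5 and 15.5 CPM with knockout and 15.6, 16.3 and 13.8 CPM without doxycycline in regrown cells, and 8.51, 7.21 and 9.17 CPM with knockout and 6.33, 5.82 and 5.59 CPM without in parental cells. The adjusted p was 0.293 with the short-gene score.

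The response of BAX RNA to CSNK2B differed between KI-JK and SU-DHL-1 cells by -0.17 on the log2 scale, by the interaction term (edgeR adjusted p = 0.0404). Without a filter on low counts the adjusted p was 0.0966.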

How the results depend on the processing

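Of 1396 single-gene values under the alternatives, 1323 kept their side of the threshold, 58 lost the call and 15 gained it. The sign changed in 77, all of them values that passed in neither fit. BCL2 and BCL2L11 were called higher in regrown cells in every alternative of the PRO-seq and both RNA-seq comparisons. Scaling by library size alone moved the median log2 of all genes to -0.10 in RNA-seq without doxycycline.

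Counts of called genes moved by more than 1.5 times in these cases, and the cause was not tested. With the short-gene score, they were 2436 for regrown against parental cells without doxycycline, 0 (0 members) for knockout in regrown cells, 1185 (2 members) for knockout in parental cells and 69 (0 members) for the ZFP91 interaction. With DESeq2 they were 240 and 82 for regrown against parental cells in DMSO and in lenalidomide, 30 for lenalidomide in parental cells, 198 for knockout in parental cells, 2441 (2 members) for the ZFP91 interaction, and 1 member for CSNK2B in KI-JK. Without a filter they were 20 for lenalidomide in regrown cells, 231 for knockout in parental cells, 2333 for the ZFP91 interaction and 0 members for the CSNK2B interaction. With all 4 groups in 1 fit they were 244 for regrown against parental cells in lenalidomide and 28 for lenalidomide in parental cells, which the 1 CPM filter put at 31. With library size alone the ZFP91 interaction held 0 members. With the replicate block, the paired fit, the ZFP91 interaction held 2257 genes (2 members) and the lenalidomide interaction 1; the block changed the calls of BMF, BAD and BAX given above and no other member's.

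Leaving out 1 library gave 3245 to 5322 genes (3 to 5 members) in PRO-seq, 222 to 512 for regrown against parental cells in DMSO and 23 to 149 in lenalidomide, 7 to 13 for lenalidomide in regrown and 25 to 105 in parental cells, 2410 to 5519 for knockout in regrown and 0 to 110 in parental cells, 1 to 3 members for CSNK2B in KI-JK and 582 to 902 genes in SU-DHL-1. For the interactions it gave 0 to 1 (lenalidomide), 0 to 3355 and 0 to 3 members (ZFP91) and 0 to 2 members (CSNK2B). Depth left 3 or 4 of the 10 members with enough counts to test in each pair of digital gene expression.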
